A study of Drosophila melanogaster with 24 samples.

Results

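The heads of wild-type flies were compared between dusk and dawn. Of the 24 poly(A) RNA libraries of the series, the 8 wild-type libraries collected around the change of light were taken, all chosen by genotype and time alone. The 4 dusk libraries were those of zeitgeber time (ZT, hours after lights on) 10 and 14, 2 replicates each, and the 4 dawn libraries those of ZT22 and ZT2. Each side therefore holds a time in the light (ZT10, ZT2) and a time in the dark (ZT14, ZT22), so the comparison sets a time of day against the opposite time of day with the lights balanced. The series profiles wild type, strain w1118 (a white-eyed laboratory strain), and the clock mutant cwo5073, at 6 times of a day of 12 h light and 12 h dark at 25 °C. Entrainment lasted 3 days, and collection followed on day 4. The treatment field mentions collection at ZT2 and ZT14 only, whereas the titles name all 6 times, and the times here come from the titles. No label gives the sex, the age or the number of flies per library. Nothing states that replicates came from separate cultures, so the p-values reflect only how these libraries vary, and that spread may be technical.

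The fly clock turns on a delayed negative loop. The transcription factors Clk and cyc drive the genes per, tim, vri, Pdp1 and cwo through E-box elements, per and tim proteins accumulate and return to the nucleus to shut Clk and cyc off, and vri and Pdp1 proteins repress and activate Clk itself. In heads the loop runs in photoreceptors, glia and a small set of brain neurons, and transcripts of the E-box genes are known to crest in the early night, when Clk transcripts are near their trough.

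The wild-type libraries held 11319605 to 16602528 counts, and 10837 genes passed the filter on low counts. Levels are given in CPM, counts scaled to the library size. As in heads, the summed level of 8 photoreceptor markers was 57675 to 64888 CPM over the 8 libraries, with all 8 detected, while 22 digestive enzyme genes of the gut, 6 of them at 0 in every library, together reached 2.56 to 8.61 CPM. The libraries of ZT2 replicate 2 and ZT22 replicate 1, both dawn, stood apart. Their median Spearman correlation with the other wild-type libraries was 0.901 and 0.956, against 0.971 to 0.983 for the other 10. The median deviation of long abundant transcripts (at least 4073 nt) minus that of short ones (up to 1527 nt) was -0.77 and -0.81 on the log2 scale in these libraries, against -0.26 to 0.50 in the others. ZT2 replicate 2 also held 9294 CPM of 7 neuronal markers and 2723 CPM of 8 male-biased markers, against 4008 to 5328 and 263 to 498 CPM in the other 7 libraries of the comparison. The yolk and oogenesis markers ranged from 4879 to 11524 CPM at dusk and from 5234 to 22014 CPM at dawn, the highest in ZT22 replicate 1. Whether these differences in composition have a part in any result below was not tested, and each main result is given with all 8 libraries and without these 2.

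At dusk 23 genes were higher (0.212% of those tested) and 26 were lower (0.24%) than at dawn, by edgeR's quasi-likelihood test at an adjusted p under 0.05. Without the pair of libraries that stand apart, 32 were higher (0.288% of 11125) and 29 lower (0.261%); 30 of the 49 genes were called in both fits, and all 49 kept their sign. In 17 of the 23 higher genes every dusk library lay above every dawn library, which held for 6.03% of all tested genes, and in 23 of the 26 lower genes every dusk library lay below, which held for 5.91%. The 49 genes had the same sign of difference in the light (ZT10 against ZT2) and in the dark (ZT14 against ZT22). The contrast that called them is the mean of these differences, so the calling itself favours a shared sign. The share over all tested genes was not computed. For CG44194 the difference in the dark was only 0.021. CG44194 and CG17327, a pair of genes on the same exons, were called in opposite directions by the way reads were divided between them, while their sum was not called, which leaves 22 and 25. The counts moved with single libraries: they were 13 and 11 without ZT10 replicate 1, 10 and 6 without ZT10 replicate 2, 12 and 14 without ZT14 replicate 1, 11 and 8 without ZT14 replicate 2, 9 and 8 without ZT22 replicate 1, 35 and 26 without ZT22 replicate 2, 44 and 48 without ZT2 replicate 2, and 13 and 10 without each ZT6 library in turn. Without ZT2 replicate 1 they were 2389 and 2170; that fit leaves ZT2 to the library that stands apart, as a lone sample assumed to vary like the other groups.

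**Figure D1:**
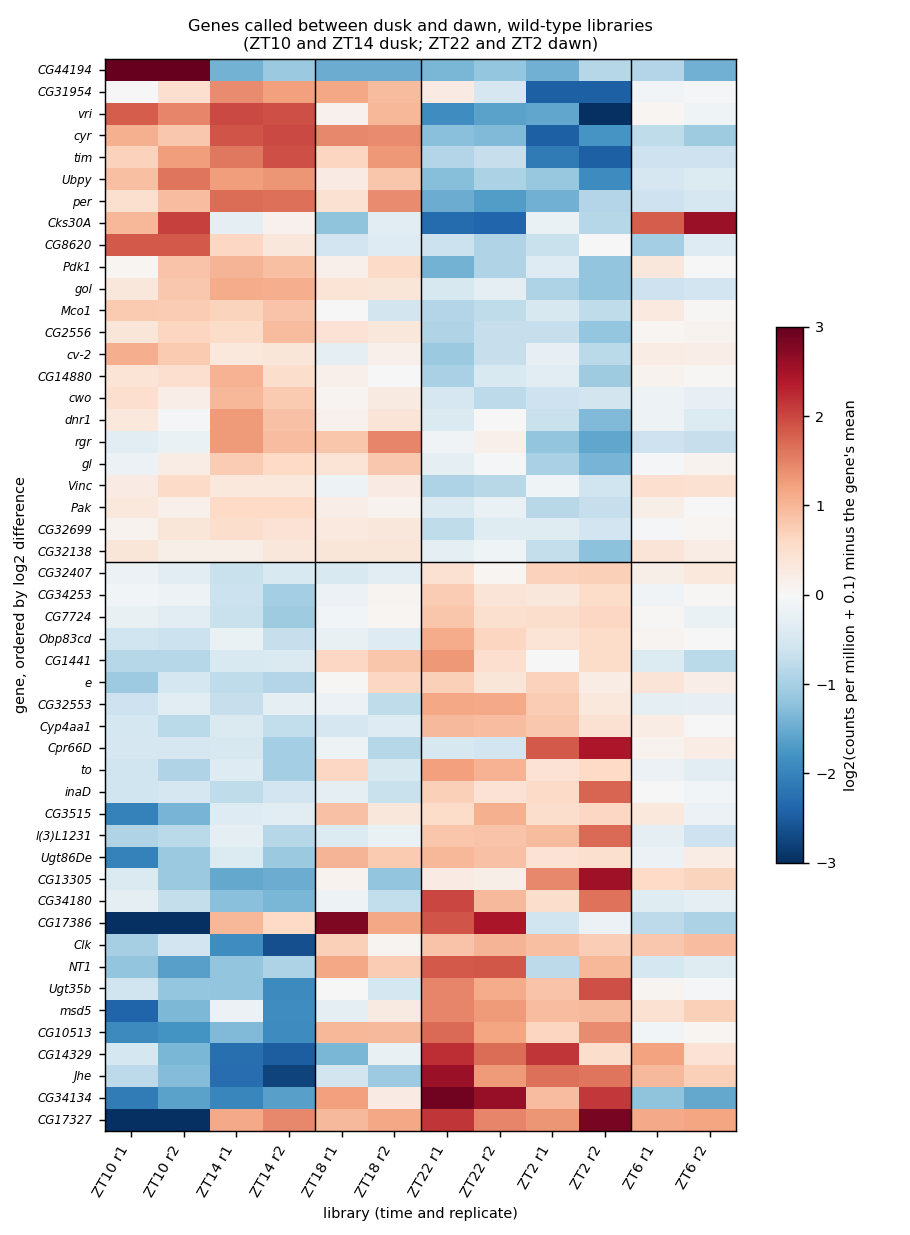
Each row is a called gene and each column a wild-type library; colour gives log2(CPM + 0.1) minus the gene's mean over the 12 libraries, red above and blue below, capped at 3 either way. The 23 higher genes are red in most dusk columns and the 26 lower genes in most dawn columns, and CG44194 and CG17327 swap only at ZT10.

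The repressor genes of the loop were among the genes that rose most. In whole heads, more cells of a type and more RNA per cell cannot be told apart. The gene vri, whose bZIP protein represses Clk (chromosome 2L, 5288944 to 5311223, dm6), was at 397 and 314 CPM in the ZT10 libraries and 446 and 430 at ZT14, against 30.9 and 37.0 at ZT22 and 38.4 and 12.5 at ZT2. All dusk libraries lay far above all dawn libraries. The log2 difference, dusk minus dawn, was 3.74 ± 0.36 (SE from the test; adjusted p = 0.00202), and 3.38 ± 0.28 without the 2 libraries (adjusted p = 0.00487).

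The gene tim, partner of per in the repressor complex and the protein that light removes (2L, 3493986 to 3508119), was at 619 and 919 CPM at ZT10 and 1146 and 1460 at ZT14. It was at 210 and 240 CPM at ZT22 and at 88.7 and 70.2 at ZT2. The groups did not overlap, and within each side the dark time was the higher. On the log2 scale it rose by 2.90 ± 0.23 (adjusted p = 0.0012), and 2.77 ± 0.28 without the 2 libraries (adjusted p = 0.0104). The tim gene shares 545 bases of exon with a non-coding gene on the opposite strand; the kit was directional, but no label or header says whether counting used strand.

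The gene per (X, 2685580 to 2692780), the other repressor, was at 148 and 201 CPM at ZT10 and 342 and 334 at ZT14, against 37.7 and 33.0 at ZT22 and 39.3 and 57.8 at ZT2. Its ZT10 libraries lay below its ZT14 libraries and well above every dawn library. Its log2 difference was 2.55 ± 0.24 (adjusted p = 0.00202), and 2.75 ± 0.30 without the 2 libraries.

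The gene cwo (3R, 10388258 to 10400752), whose bHLH-Orange protein binds the same E-boxes and is the gene mutated in the study's other genotype, changed less. It was at 125 and 102 CPM at ZT10 and 177 and 151 at ZT14, against 62.5 and 51.3 at ZT22 and 56.7 and 60.4 at ZT2. The dawn libraries were close to each other and all below dusk. Its log2 difference was 1.24 ± 0.14 (adjusted p = 0.0057), and 1.33 without the 2 libraries.

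Clk (3L, 7763233 to 7775603), the activator gene, was the inverse. It was at 13.2 and 17.8 CPM at ZT10 and 7.28 and 4.22 at ZT14, against 48.0 and 54.4 at ZT22 and 50.2 and 44.4 at ZT2. The 4 dawn libraries lay within a narrow band and every dusk library under it, with ZT14 the lowest. Clk fell, with a log2 difference of -2.38 ± 0.22 (adjusted p = 0.00202), and -2.47 ± 0.24 without the 2 libraries. These 5 calls held in every fit that left out a single library.

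Of the 9 core clock genes measured, 4 rose at dusk and 1 fell, against 0.212% and 0.24% of all tested genes, and 4 were not called. CG31324 (RefSeq symbol Cipc), the fly ortholog of the CLOCK-interacting protein that the study's title names, was at 98.4 and 77.2 CPM at ZT10, 107 and 96.5 at ZT14, 54.8 and 56.7 at ZT22 and 50.7 and 83.7 at ZT2. Only the dawn library ZT2 replicate 2 reached into the dusk range. Its log2 difference was 0.63 ± 0.17 (adjusted p = 0.179), and 0.81 ± 0.12 without the 2 libraries (adjusted p = 0.0452). The partner gene cyc differed by 0.19 ± 0.16 (adjusted p = 0.47) and the blue-light receptor gene cry by -0.15 ± 0.24 (adjusted p = 0.715). The cry level was 206 CPM in both ZT10 libraries, 143 and 137 at ZT14, 183 and 198 at ZT22, and 262 and 110 at ZT2, so its groups overlapped.

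**Figure D2:**
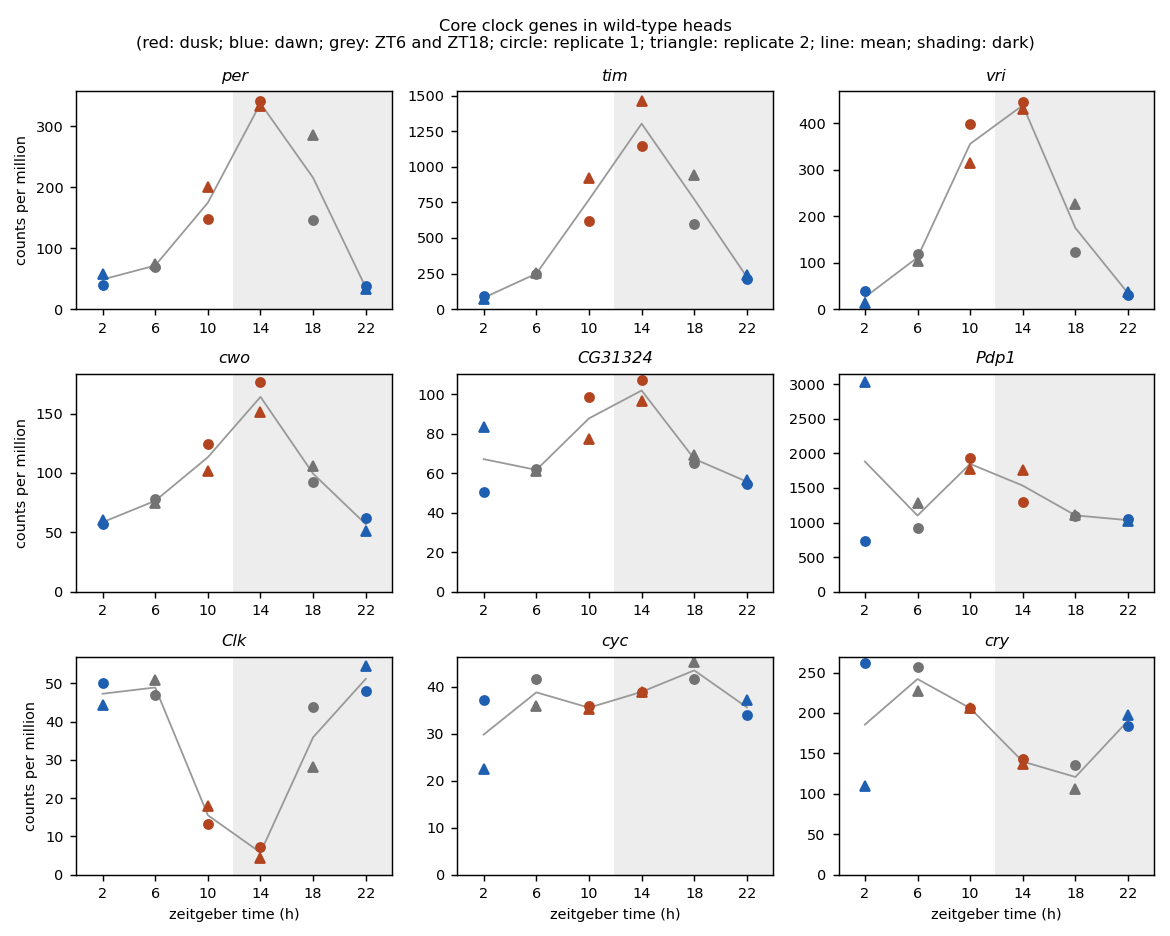
CPM of the 9 core clock genes against zeitgeber time in hours, 2 replicates a time (circles and triangles), dusk red, dawn blue, the mean as a line and the dark hours shaded. The genes per, tim, vri and cwo are highest at ZT14 and Clk is lowest there; at ZT2 replicate 2 (triangle) Pdp1 is at 3029 CPM, against 735 in replicate 1.

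Pdp1, the activator of Clk, was not called as a gene, while a transcript of it was. The gene was at 1928 and 1768 CPM at ZT10 and 1304 and 1763 at ZT14, against 1047 and 1022 at ZT22 and 735 and 3029 at ZT2. The library ZT2 replicate 2 was the highest of the 8, and the other 3 dawn libraries lay below all dusk libraries. The log2 difference was 0.27 ± 0.37 (adjusted p = 0.656), and 0.95 ± 0.20 without the 2 libraries (adjusted p = 0.12).

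The annotation gives Pdp1 several start sites, and its isoform Pdp1ε is the form known for work in the clock; the files do not say which RefSeq transcript that is. Summed over the 2 transcripts that start at 3L, position 7833073, the FPKM level (reads scaled for transcript length and library size) was 26.4 and 29.6 at ZT10 and 55.4 and 44.6 at ZT14, against 2.21 and 9.47 at ZT22 and 2.52 and 1.65 at ZT2. Every dusk library lay above every dawn library, and the ratio of the mean levels was 9.85. At the start site used by 7 transcripts (position 7855548) FPKM was 288 and 276 at ZT10, 167 and 267 at ZT14, 150 and 181 at ZT22, and 110 and 342 at ZT2, a ratio of 1.28. The first of these sites therefore held 13.5% of Pdp1 FPKM at dusk and 2.16% at dawn. These sums were added after the values were seen and were given no test. They rest on the division of reads between overlapping models by the authors' software.

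Over all transcripts, 30 of 19945 were higher at dusk (0.15%) and 17 lower (0.0852%) in limma's test on log2(FPKM + 1), and 61 and 50 without the 2 libraries. They belong to 42 genes, of which 12 were also called as genes. Among core clock transcripts, Pdp1 NM_168238 rose from 2.44 to 24.8 FPKM (log2 difference 3.02 ± 0.36 on that scale, adjusted p = 0.0233). Beside this and the per forms below, no transcript of a core clock gene was called with all 8 libraries. The form vri NM_001144320 averaged 84.7 FPKM at dusk and 3.02 at dawn (4.98 ± 0.73, adjusted p = 0.0564). Clk NM_079240 averaged 2.30 and 9.91 (adjusted p = 0.0631). Without the 2 libraries their log2 differences were 3.61 and -2.03. The per transcripts NM_001272265 and NM_080317 rose by 2.51 ± 0.26 and 2.39 ± 0.26 (adjusted p = 0.0143 and 0.0157); without the 2 libraries the adjusted p was 0.0515, no longer called, and 0.049. The transcript counts were 2185 and 708 without ZT2 replicate 1, 95 higher without ZT22 replicate 2, 36 lower without ZT2 replicate 2, 14 and 9 without ZT10 replicate 1, 17 higher without ZT10 replicate 2, 16 higher without ZT14 replicate 1, 17 and 10 without ZT14 replicate 2, and 15 higher without each ZT6 library in turn.

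Among the 10 transcripts with the lowest adjusted p, 5 in each direction, 3 were listed at 0 in all libraries of a side. HP1b NM_001169242, of a heterochromatin protein gene, averaged 21.2 FPKM at dusk and was listed at 0 in all dawn libraries. Its sister form NM_001258657, chosen after its values were seen, fell from 16.4 FPKM at dawn to 2.04 at dusk (adjusted p = 0.0325). Both models are single exons from X, position 9081254, to 9082358 and 9082746. The shorter thus lies within the longer, and the values rest on how reads were divided between them. Whether the form in use changed was not tested. HP1b was not called as a gene, nor were CG8726, DopEcR, cm and CG2059 below. CG8726 NM_165580 averaged 15.5 FPKM at dusk and was listed at 0 in all dawn libraries. DopEcR NM_001014560, of a receptor gene for dopamine and ecdysteroids, was at 70.3 to 107 FPKM at dusk, 51.9 and 76.2 at ZT22 and 0.483 and 0.124 at ZT2, so ZT22 reached into the dusk range and the low values were those of ZT2. The transcripts CG44194 NM_001300379 (27.8 FPKM at dusk, 0.0498 at dawn) and CG17327 NM_169488 (28.6 and 83.0) are taken up with their genes. The form cm NM_176700 was at 16.9 to 23.4 FPKM at dusk, at a like level of 19.5 and 25.1 at ZT22, and listed at 0 in both ZT2 libraries. On the lower side were CG34134 NM_001042882 (23.6 and 383), CG10513 NM_143113 (4.09 and 30.0) and l(3)L1231 NM_001300399 (5.46 and 24). CG2059 NM_001201624 was at 24.7 and 20.8 FPKM at ZT22 and listed at 0 in both ZT2 libraries as in all dusk libraries, so its difference was one of ZT22, and without the 2 libraries it was not tested.

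**Figure D3:**
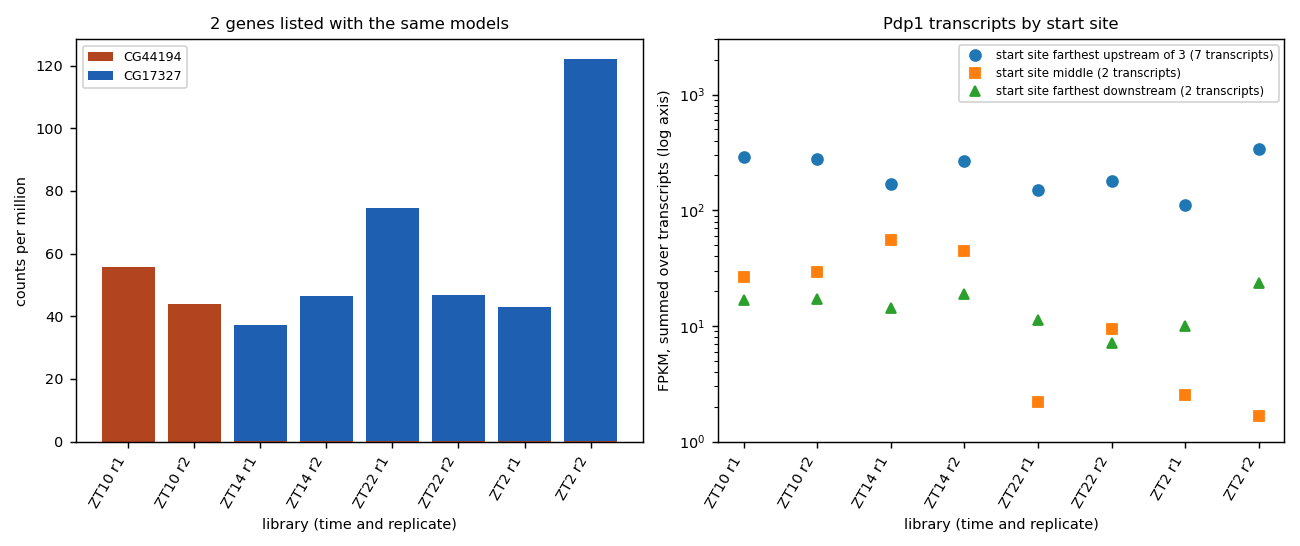
Left, CPM of CG44194 and CG17327 stacked in the 8 libraries; right, Pdp1 FPKM summed by start site on a log axis in the same libraries. At ZT10 the whole level of the pair is counted to CG44194, elsewhere nearly all to CG17327; the middle Pdp1 site (squares) is at 26.4 to 55.4 FPKM at dusk and 1.65 to 9.47 at dawn.

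Outside the core loop, cyr and Ubpy rose most among the named genes, whose average log2 CPM is at least 3, leaving aside CG44194. The gene cyr (X, 8121280 to 8135713) was at 16.5 and 13.9 CPM at ZT10 and 29.3 and 31.2 at ZT14, against 3.25 and 3.08 at ZT22 and 1.37 and 2.24 at ZT2. Its groups were widely apart, and its log2 difference of 3.18 ± 0.18 had the lowest adjusted p of all genes, 2.17e-04. Ubpy (RefSeq symbol Usp8; 3R, 21134262 to 21138214), which encodes a deubiquitinating enzyme of the endosome, was at 271 and 437 CPM at ZT10 and 343 and 358 at ZT14, against 59.1 and 74.4 at ZT22 and 65.6 and 38.8 at ZT2. The lowest dusk library was several times the highest dawn library, and the log2 difference was 2.58 ± 0.25 (adjusted p = 0.00202). The calls of per, vri, cyr and Ubpy held in all 28 alternative analyses.

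The gene gol (goliath; 2R, 25072627 to 25084347), a RING-domain ubiquitin ligase, was at 381 and 532 CPM at ZT10, 649 and 638 at ZT14, 216 and 245 at ZT22, and 158 and 133 at ZT2. It rose by 1.57 ± 0.16 (adjusted p = 0.00304), with ZT14 above ZT10 and ZT22 above ZT2. Mco1, a multicopper oxidase gene, was at 17.8 and 17.3 CPM at ZT10 and 16.4 and 18.7 at ZT14, against 5.55 and 5.99 at ZT22 and 7.33 and 6.02 at ZT2. The spread within either side was small, and the gene rose by 1.5 ± 0.17 (adjusted p = 0.0057). CG2556 (RefSeq symbol mdu) rose by 1.5 ± 0.17, from 4.25 to 5.99 CPM at dawn to 12.4 to 18.9 at dusk. Without ZT22 replicate 1 the adjusted p of Mco1 and CG2556 was 0.0503 and 0.0511, with log2 differences of 1.42 to 1.60 and 1.38 to 1.66 over the omissions of a single library.

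Several higher genes had a shape of their own within dusk. CG8620 was at 22.3 and 22.5 CPM at ZT10 and at 9.54 and 7.84 at ZT14, with dawn at 3.25 to 6.14. It thus stood highest before lights off, and its log2 difference was 1.73 ± 0.21 (adjusted p = 0.00931; 0.0511 without ZT22 replicate 1 and 0.0549 without ZT10 replicate 2). The gene cv-2 (crossveinless 2), whose product binds BMP ligands outside the cell, was at 75.0 and 61.4 CPM at ZT10, 44.3 and 45.9 at ZT14, and 16.3 to 29.6 at dawn. It rose by 1.34 ± 0.18 (adjusted p = 0.0128), and 5 of the 12 omissions of a library ended the call. By contrast dnr1, a ubiquitin ligase gene that restrains innate immune signalling, was at 117 and 92.0 CPM at ZT10 and at 229 and 172 at ZT14, and the lower ZT10 library lay inside the dawn range (37.5 to 95.3). Its log2 difference was 1.19 ± 0.20 (adjusted p = 0.0488), the call was lost without the 2 libraries (0.93, adjusted p = 0.0874), and 10 of 12 omissions ended it.

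Pdk1, the kinase gene that acts below phosphoinositide 3-kinase, was at 186 and 321 CPM at ZT10 and 363 and 331 at ZT14, and at 66.1 to 136 at dawn. It rose by 1.67 ± 0.26 with all 8 libraries (adjusted p = 0.0329), and the call was lost without the 2 libraries (1.38, adjusted p = 0.0874) and in 9 of 12 omissions. CG14880 (RefSeq symbol js) rose by 1.30 ± 0.21 (adjusted p = 0.0361) from 11.6 to 19.5 CPM at dawn to 31.9 to 50.2 at dusk, with the call ended in 9 omissions. The gene gl (glass), a zinc finger factor of photoreceptor fate, was at 65.1 and 86.2 CPM at ZT10 and 126 and 113 at ZT14, and the higher of its ZT22 libraries, at 61.0 and 72.6, reached into the ZT10 range. Its log2 difference of 1.02 ± 0.17 (adjusted p = 0.0399) was not called without the 2 libraries (0.86, adjusted p = 0.104), and 10 omissions ended the call.

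Among the called lower genes other than CG17327 the change was steepest in CG34134 (2L, 8190297 to 8190781), a short gene with no described role in the files. It was at 9.69 and 13.8 CPM at ZT10 and 10.6 and 13.3 at ZT14, against 312 and 256 at ZT22 and 79.9 and 183 at ZT2. The dusk libraries agreed closely, while the dawn libraries were spread, with ZT22 the highest. The log2 difference was -4.02 ± 0.34 (adjusted p = 0.00173), and -3.59 ± 0.27 without the 2 libraries. Jhe, the juvenile hormone esterase gene, fell by 3.85 (adjusted p = 0.00202), from 5.65 to 14.0 CPM at dawn to 0.245 to 1.26 at dusk; it lies under the level set for named genes and was chosen after its values were seen.

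Of the list of known head clock outputs, 22 of 23 members found in the table were tested, and 5 fell at dusk and none rose, against 0.24% and 0.212% of all tested genes. The median log2 difference was -0.36, against -0.02 over all tested genes. The list holds genes known for rhythms in heads, with crests at different times.

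CG10513 (3R, 25275790 to 25277212) was at 5.03 and 5.42 CPM at ZT10 and 7.6 and 5.14 at ZT14, against 62.4 and 43.4 at ZT22 and 29.8 and 51.3 at ZT2. All dusk libraries lay at a level several times under the lowest dawn library. The log2 difference was -3.0 ± 0.23 (adjusted p = 0.0012), and the calls of CG10513 and CG34134 held in all 28 alternatives.

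Ugt35b (RefSeq symbol Ugt35B1; 3R, 11168503 to 11170246), a UDP-glycosyltransferase gene of small-molecule conjugation, was at 56.9 and 38.5 CPM at ZT10 and 37.7 and 22.6 at ZT14. It was at 236 and 185 CPM at ZT22 and at 155 and 325 at ZT2. No dusk library came near a dawn library, and the log2 difference was -2.57 ± 0.29 (adjusted p = 0.0057; 0.0558 without ZT10 replicate 2).

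The gene to (takeout), which links the clock to feeding, was at 87.3 and 71.0 CPM at ZT10 and 102 and 65.5 at ZT14, against 313 and 275 at ZT22 and 178 and 200 at ZT2. The groups were apart, with ZT22 above ZT2. It fell by 1.53 ± 0.25 with all 8 libraries (adjusted p = 0.043), and the call was lost without the 2 libraries (-1.45, adjusted p = 0.104) and in 8 of 12 omissions.

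The gene e (ebony), which conjugates dopamine and histamine to beta-alanine in glia, was at 4.31 and 6.39 CPM at ZT10 and 5.41 and 5.02 at ZT14, against 15.2 and 11.9 at ZT22 and 15 and 10.9 at ZT2. It fell by 1.32 ± 0.21 (adjusted p = 0.0361), a call lost without the 2 libraries (-1.34, adjusted p = 0.0558) and in 8 omissions. It was the only one of 16 glial genes called, where 0.24% of all tested genes fell. The summed glial level was 2985 to 3243 CPM at dusk and 2850 to 3154 at dawn.

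CG17386 (RefSeq symbol Achl) was low at ZT10 rather than at dusk as a whole. It was at 3.95 and 3.71 CPM at ZT10 and 102 and 76.6 at ZT14, against 190 and 278 at ZT22 and 33.5 and 44.8 at ZT2. The ZT14 libraries lay above the ZT2 libraries, so the groups overlapped. The log2 difference was -2.37 ± 0.34 (adjusted p = 0.0234), lost without the 2 libraries (adjusted p = 0.0581) and in 7 of 12 omissions.

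The members of that list that were not called included Slob (0.66 ± 0.18, adjusted p = 0.18), which binds the Slowpoke potassium channel, and the glutathione synthesis genes Gclm (0.98 ± 0.45) and Gclc (0.48 ± 0.22). In each of these 3, and in loco (0.46) and CG14275 (0.39), every dusk library lay above every dawn library. That held for 6.03% of all tested genes. The uncalled members named here all rose, whereas only 9 of the 22 tested members of the list had a positive difference. Without the 2 libraries, to, e and CG17386 were not called, and Cyp18a1, a P450 gene that inactivates ecdysone, was called higher (1.19 ± 0.12, adjusted p = 0.0106; 0.57 with all 8).

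Among 35 genes of opsins and phototransduction 1 fell and none rose (0.24% and 0.212% over all tested genes), with a median of -0.08. It was inaD (2R, 22855688 to 22858794), the PDZ scaffold that holds the signalling complex together. It was at 627 and 674 CPM at ZT10 and 568 and 640 at ZT14, against 1566 and 1299 at ZT22 and 1411 and 3183 at ZT2. The dusk libraries were tight, and ZT2 replicate 2 stood far above the other dawn libraries. The log2 difference was -1.53 ± 0.25 with all 8 libraries (adjusted p = 0.043) and -1.12 ± 0.14 without the 2 (adjusted p = 0.0241), and 10 of 12 omissions of a single library ended the call. The opsin gene Rh2 differed by -1.16 ± 0.20 (adjusted p = 0.0513), with every dusk library below every dawn library, and ninaE, the main opsin gene, by 0.21 ± 0.21 (adjusted p = 0.525). Without the 2 libraries pinta, a retinoid-binding protein gene of vision, was called as well (-1.17 ± 0.18, adjusted p = 0.044).

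Of 9 UDP-glycosyltransferase genes 2 fell, Ugt35b and its neighbour Ugt86De (RefSeq symbol Ugt35E2), and the list median was -0.46. Over all tested genes 0.24% fell. Ugt86De was at 0.538 and 1.10 CPM at ZT10 and 1.87 and 1.10 at ZT14, and at 3.42 to 5.07 at dawn. It fell by 1.88 ± 0.28 (adjusted p = 0.0267), not called without the 2 libraries (adjusted p = 0.0759) and in 10 omissions. The models of the pair are 521 nt apart on the same strand and do not share exons. Of 70 cytochrome P450 genes 1 fell: Cyp4aa1 was at 4.58 and 3.77 CPM at ZT10 and 4.90 and 3.98 at ZT14, against 13.2 and 12.8 at ZT22 and 11.7 and 9.20 at ZT2. It fell by 1.44 ± 0.17 (adjusted p = 0.0057), and the call ended without replicate 2 of ZT10 or ZT14 (adjusted p = 0.0549 and 0.053). Its exons share 334 bases with Strn-Mlck on the opposite strand.

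The next 2 lists are likewise to be set against 0.24% of all tested genes that fell. Of 45 cuticle protein genes 1 fell, Cpr66D (3L, 8640439 to 8643584). It was at 40.1 and 60.8 CPM at ZT2, and at 7.98 and 7.47 at ZT22, inside or near the dusk range of 5.45 to 7.93. Its log2 difference of -1.45 ± 0.21 (adjusted p = 0.0252) therefore rests on ZT2, and the call was lost without the 2 libraries (adjusted p = 0.0663) and in 7 omissions. CG13305, whose model lies 1331 nt away on the other strand, had a similar course. It was at 99.5 and 213 CPM at ZT2, 43.2 and 41.6 at ZT22, and 12.5 to 27.3 at dusk (-2.28 ± 0.33, adjusted p = 0.0244; 0.0581 without the 2 libraries). Of 31 odorant binding protein genes 1 fell: Obp83cd was at 2.26 to 3.22 CPM at dusk and 4.97 to 8.18 at dawn (-1.24 ± 0.20, adjusted p = 0.0402; 0.0904 without the 2 libraries). The calls of CG13305 and Obp83cd ended in 7 and 9 of 12 omissions.

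The other named genes that fell were l(3)L1231, CG1441, CG7724 and CG32553. The first was at 42.0 to 65.3 CPM at dusk and 140 to 255 at dawn, a log2 difference of -1.80 ± 0.21 (adjusted p = 0.00598; 0.058 and 0.0558 without ZT10 replicate 1 and 2). CG32553, which RefSeq lists as a long non-coding RNA gene, was at 8.25 to 11 CPM at dusk and at 30.0 and 29.6 at ZT22 and 23.0 and 16.9 at ZT2. It fell by 1.33 ± 0.19 (adjusted p = 0.0204). CG1441 fell by 1.27 ± 0.20, from 40.8 to 98.9 CPM at dawn to 22.3 to 29.9, and CG7724 by 1.19 ± 0.15, from 23.2 to 29.8 CPM to 7.96 to 14.3. The calls of CG32553, CG1441 and CG7724 ended in 8, 9 and 4 of 12 omissions.

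The genes CG44194 and CG17327 (3R, 12996876 to 12997726, same strand, 851 shared exon bases) are each listed with the same pair of models, of 707 and 851 nt, so these reads cannot tell the names apart. CG44194 was at 55.6 and 43.8 CPM at ZT10 and at 0.124 to 0.236 in the other 6 libraries. CG17327 was at 0 in both ZT10 libraries and at 37.0 to 122 in the others. The level was thus counted to a different name at ZT10, on the longer model there and on the shorter one elsewhere; whether the longer form was the one present at ZT10 was not tested. Their log2 differences of 4.09 and -6.92 (adjusted p = 0.00202 for each) are values of that division. Counted together, the pair was at 55.6 and 43.8 CPM at ZT10, 37.1 and 46.3 at ZT14, 74.5 and 46.8 at ZT22, and 42.8 and 122 at ZT2, and the log2 difference was -0.63 ± 0.30 (adjusted p = 0.241). With all genes of identical ends counted together, a step added after the data were seen, 23 and 25 genes were called, and 47 of the 49 were shared.

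**Figure D4:**
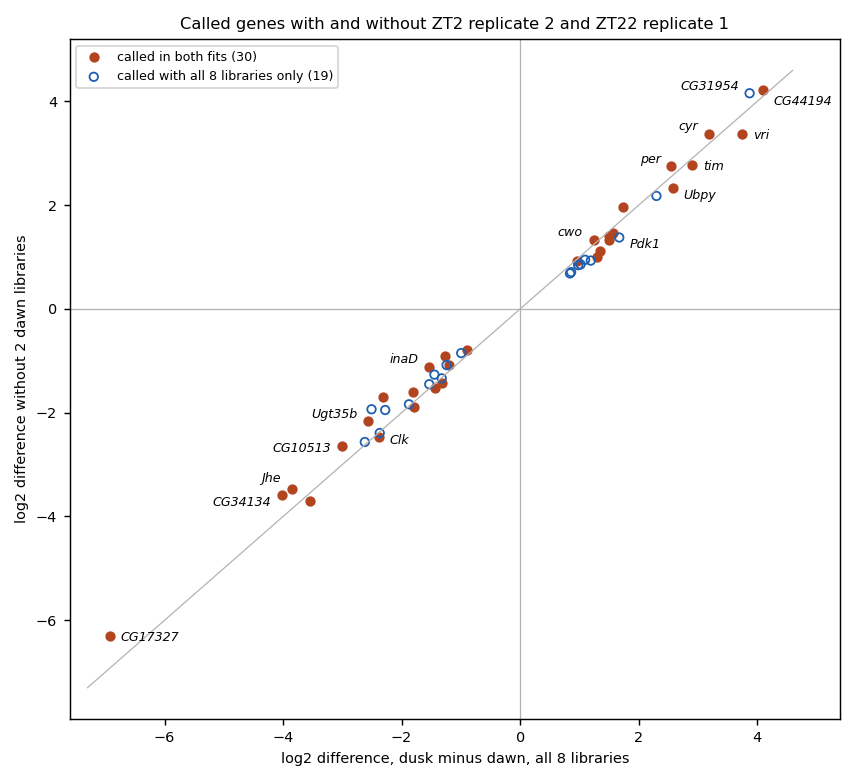
Log2 difference, dusk minus dawn, of the 49 called genes with all 8 libraries (horizontal) and without ZT2 replicate 2 and ZT22 replicate 1 (vertical); filled points were called in both fits, open points with all 8 only, and the diagonal marks equality. All points keep their side of 0, and 19 of them are open.

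A 24 h cosine was fitted to log2 CPM over the 12 wild-type libraries. The sign of the contrast by which genes were called already puts the peak of higher genes between ZT6 and ZT18 and that of lower genes outside it, so only the position within that span describes the genes. The peak fell after ZT12 in 17 of the 23 higher genes and before it in 6, and before ZT24 in 13 of the 26 lower genes and after it in 13. In 18 of the higher genes the ZT6 mean, and likewise in 18 the ZT18 mean, lay between the dawn and dusk means. For the lower genes these counts were 25 and 23. Calling genes for a gap between the dusk and dawn means favours other means falling inside it. The share over all tested genes was not computed, so these counts only describe the called genes. The ZT6 and ZT18 libraries took no part in the contrast other than through the estimate of spread.

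The called genes differed in length by direction. The median transcript length was 3337 nt in the higher genes and 1391 nt in the lower ones, against 1853 nt over all tested genes. Over the 10837 tested genes, which are not independent replicates, length and the log2 difference had a Spearman rho of 0.421 with all 8 libraries, 0.289 without the 2, and -0.0187 with offsets for gene length in each library. With these offsets 34 genes were higher and 28 lower, and 41 of the 49 calls were shared, 21 of the higher and 20 of the lower. All 49 kept their direction under this correction.

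Lists of short genes lay low at dusk with all 8 libraries and near 0 without the 2. No member of the 85 cytosolic ribosomal protein genes was called, and their median of -0.74 became -0.08 (-0.29 with length offsets and all 8 libraries). For 73 mitochondrial ribosomal protein genes the median went from -0.59 to -0.19, for 15 nuclear oxidative phosphorylation genes from -0.52 to -0.14, for 31 odorant binding protein genes from -0.65 to -0.08, and for 24 antimicrobial peptide genes from -0.76 to 0.0032, each over the genes tested in both fits. The median over all tested genes was -0.02 and -0.0021 in the same fits. The stress-induced Turandot genes kept a low median, -2.06 and -1.74, with 4 genes tested and none called; TotC differed by -2.93 ± 0.58 (adjusted p = 0.0749), with every dusk library below every dawn library.

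Of 13 genes for clock kinases, phosphatases and degradation, which set the speed of the loop, none was called (median 0.07). The phosphatase subunit gene tws had the largest difference in which the groups did not overlap, 0.59 ± 0.15 (adjusted p = 0.143). All 6 activity-regulated genes had positive differences (median 0.44, none called), as did 5241 of all 10837 tested genes. The largest was that of CG14186 at 0.89 ± 0.17 (adjusted p = 0.0653), and in the other members dusk and dawn overlapped. With length offsets the list median was 0.38, and sr was at -0.098. None of 32 neuropeptide genes, 35 synapse and excitability genes, 26 heat shock and chaperone genes or 18 insulin and nutrient signalling genes was called with all 8 libraries, and their medians were -0.11, 0.04, 0.02 and 0.15. Without the 2 libraries ple, the tyrosine hydroxylase gene of dopamine synthesis, was called lower (-0.85 ± 0.11, adjusted p = 0.0274; -0.52 with all 8). The remaining lists had no called member with all 8 libraries beyond those described: the medians were -0.13 for 17 eye pigment and lens genes, 0.28 for glia, -0.18 for 15 genes of secretory folding, -0.32 for 30 glutathione S-transferases, -0.26 for the P450 genes, 0.01 for 34 sugar and glycogen genes, -0.06 for 27 lipid genes, -0.0034 for 7 fat body storage genes (to among them), -0.27 for 36 proteasome genes, -0.10 for 35 translation factor genes, -0.30 for cuticle proteins and -0.88 for 2 metallothioneins. Of the cell type marker lists, photoreceptor held gl (higher) and inaD (lower) among 8 genes (median 0.03), against 0.212% and 0.24% of all tested genes. The others held no call, with medians of 0.10 for 19 muscle, -0.80 for 4 gut, -0.54 for 4 female and yolk, -0.97 for 2 male, 0.11 for 10 hemocyte, 0.29 for 7 neuron and 0.25 for 3 fat body genes.

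**Figure D5:**
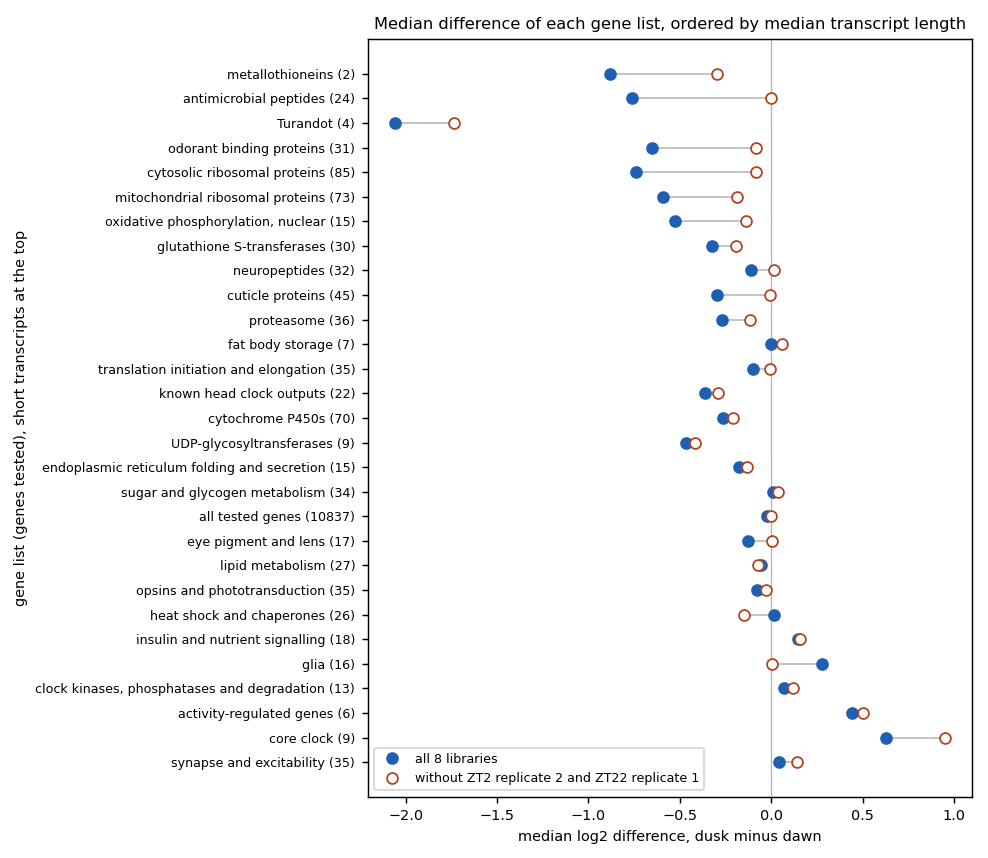
Median log2 difference, dusk minus dawn, of each gene list other than the cell type markers, with all 8 libraries (filled) and without ZT2 replicate 2 and ZT22 replicate 1 (open); lists are ordered by the median transcript length of their members, shortest at the top, with the number of genes tested with all 8 in brackets; the open points take the genes tested in their own fit. Lists of short genes, such as the 85 cytosolic ribosomal protein genes, move from -0.74 to -0.08, and the core clock list moves from 0.63 to 0.95.

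Some called genes lay near each other in the genome. How often tested genes lie so close was not computed. Of the called genes, 4 pairs were within 10000 nt, among them CG44194 and CG17327, which lie on the same exons. The other 3 were in a common direction: tim and CG31954 (938 nt apart, both higher), Cpr66D and CG13305, and Ugt86De and Ugt35b. CG31954, chosen for its place after its values were seen, was at 0.449 and 0.67 CPM at ZT10 and 1.35 and 1.16 at ZT14, at 0.541 and 0.285 at ZT22 and at 0 in both ZT2 libraries (adjusted p = 0.0488, and 0.0839 without the 2 libraries; the fitted fold depends on the prior count and is not given). At this level a few reads decide the value, and the call held in 7 of 23 alternatives.

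Of the 31 genes called only without the 2 libraries, 18 were higher and 13 lower. In that fit ZT2 and ZT22 have a single library each, assumed to vary like the other groups. Some of these calls stood on 1 library: Prosalpha1, a proteasome subunit gene, was at 2.59 CPM at ZT2 against 59.6 at ZT22 and 44.2 to 60.2 at dusk (1.97 ± 0.18, adjusted p = 0.00784). Cyp18a1, at 13.2 CPM in each of the 2 dawn libraries and 27.8 to 32.5 at dusk, did not.

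The same comparison in the cwo5073 libraries, which the wild-type result did not use, gave the same sign for all 22 higher genes and for 24 of the 25 lower genes other than CG44194 and CG17327, against 60.1% and 59.6% of all 10837 genes; the exception was l(3)L1231. Of the called genes, 9 and 14 were called in the mutant in the same direction, in a fit of all 24 libraries that called 20 genes higher (0.18% of 11095) and 28 lower (0.252%) at dusk. In the mutant the difference was 2.23 ± 0.22 for per, 1.95 ± 0.18 for tim, 2.10 ± 0.28 for vri, 1.10 ± 0.12 for cwo and -1.95 ± 0.19 for Clk, all called. It was 2.30 ± 0.14 for cyr, 2.00 ± 0.19 for Ubpy, 1.70 ± 0.13 for gol, -2.96 ± 0.28 for CG34134 and -1.53 ± 0.23 for CG10513, also all called. CG31324 was called in the mutant at 0.78 ± 0.13 (adjusted p = 0.0155). Its wild-type difference minus the mutant one was -0.12 ± 0.19, not called in edgeR's test (adjusted p = 0.772).

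Whether a difference between dusk and dawn itself differed between the genotypes was tested for every gene. EdgeR's quasi-likelihood test called 0 of 11095 genes (0%, lowest adjusted p = 0.192), with 868 at an unadjusted p under 0.05. DESeq2's Wald test called 13, among them cv-2, CR44390, CG31683, msd5, CG10513, CG8620 and vri. The adjusted p below are those of edgeR. Of the 16 dusk and dawn libraries of both genotypes, leaving out ZT2 replicate 1 of wild type gave 2672 calls, and leaving out each of the others gave 0 to 4; the ZT6 and ZT18 libraries were not left out in this comparison. The lowest adjusted p were those of cv-2, CR44390, CG31683, msd5 and CG31546. In wild type cv-2 was at 44.3 to 75.0 CPM at dusk and 16.3 to 29.6 at dawn, and in the mutant at 29.4 to 38.4 and 24.3 to 34.3, a difference of differences of 1.22 ± 0.20 (adjusted p = 0.192). Wild-type CPM were scaled in the wild-type fit and mutant CPM in the fit of both genotypes. Levels are therefore not on a common scale across the genotypes. The highest mutant library for cv-2 was ZT6 replicate 1 at 42.9 CPM, close to the lowest wild-type dusk library at 44.3 CPM. Whether the mutant libraries lie below wild-type dusk is thus not settled by these values. CG8620, at 7.84 to 22.5 CPM at wild-type dusk, was at 2.00 to 2.85 CPM at dusk and 1.85 to 2.85 at dawn in the mutant (difference of differences 1.69 ± 0.38, adjusted p = 0.558).

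For vri the difference of differences was 1.66 ± 0.39 (adjusted p = 0.558; unadjusted p = 5.98e-04), with mutant libraries at 284 to 401 CPM at dusk and 57.7 to 105 at dawn. With the CPM of the genotypes scaled in separate fits, mutant dawn levels of vri lay above every wild-type dawn library. Mutant dusk levels overlapped with wild-type dusk. Neither was checked on a common scale. For per it was 0.35 ± 0.30, for tim 0.97 ± 0.25, for cwo 0.17 ± 0.17 and for Clk -0.41 ± 0.26, none called (adjusted p of 0.558 to 0.648). CR44390, an antisense gene that shares 2779 exon bases with Dark, differed by 3.05 (adjusted p = 0.278) and CG31683 by -1.57 (adjusted p = 0.278). Neither was called by edgeR, and both were by DESeq2. For these the wild-type and mutant differences had opposite signs, 1.38 and -1.64 for CR44390 and -0.85 and 0.75 for CG31683. For msd5 and CG31546, both at under 4 CPM in wild type, it was -2.18 and 2.27 (adjusted p = 0.558 for each).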

How the data were processed

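Heads of flies were profiled by single-end sequencing of poly(A) RNA with a directional kit, per the labels' protocols; tools listed without roles, per the submitters' processing notes, are StringTie, DESeq2 and STAR 2.6.1d, with dm6 as the build. The authors deposited a gene table of estimated counts, which are whole numbers, a gene table of FPKM, and per-sample tables of transcript FPKM and coverage. Every gene count equalled the sum over transcripts of coverage times length over the read length of 75, each rounded up, in 100% of 16722 genes. No label or header says whether counting used strand. 5 gene names turned into dates were left out. The 8 dusk and dawn libraries were compared within a fit of the 12 wild-type libraries, time being a factor of 6 levels, with TMM scaling, filterByExpr and edgeR's quasi-likelihood test (6 residual degrees of freedom; Benjamini-Hochberg adjusted p under 0.05; edgeR 4.0.16, limma 3.58.1, DESeq2 1.42.0, R 4.3.3). Transcripts with FPKM of at least 1 in 2 libraries were tested with limma on log2(FPKM + 1), a scale that understates the change of low transcripts. The genotype comparison used all 24 libraries. Depth bounds precision at low genes. Tests ran on simulated data first.

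The libraries, gene lists and tests were chosen with earlier results of these data known. Named were the 9 core clock genes, the 15 called genes highest and lowest in log2 difference with average log2 CPM of at least 3 and the same sign without the 2 libraries that stand apart, the extreme called members of each of 36 gene lists, the 5 lowest adjusted p of the genotype comparison, and transcripts of core clock genes with the 5 lowest adjusted p in each direction. Alternatives were other scalings, filters, designs, tools, length offsets and the omission of libraries; counting genes of identical ends together was added after the data were seen. Gene positions are on dm6, and 16519 of 16722 names matched RefSeq. Figures used Python 3.11.15, numpy 2.4.6, pandas 2.3.3 and matplotlib 3.10.9.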

Additional observations from a re-analysis of the deposited data

Results flagged for a closer look

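In 7 of 76 groups of 4 libraries, for genes named above, a library lay far from the other 3 (gap over range above Dixon's 95% critical value); chance gives about 1 in 20, and each group mixes 2 times of day. Of the values, 3 belong to ZT2 replicate 2, a library that stands apart: Pdp1 at 3029 CPM against 735 to 1047 in the other dawn libraries, inaD at 3183 against 1299 to 1566, and l(3)L1231 at 255 against 140 to 150. ZT14 replicate 1 was high among the dusk libraries for Obp83cd (3.22 CPM against 2.26 to 2.42), l(3)L1231 (65.3 against 42.0 to 44.4) and CG10513 (7.6 against 5.03 to 5.42). ZT14 replicate 2 was low for Cpr66D, at 5.45 CPM against 7.81 to 7.93.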

How the results depend on the processing

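None of the 49 called genes reversed in any alternative that could test it, and per, vri, cyr, Ubpy, CG10513 and CG34134 kept their call in all 28. Over the omission of each library in turn, the count of higher genes ranged from 9 to 2389 and of lower genes from 6 to 2170, and transcripts from 14 to 2185 and from 9 to 708; over the omission of each dusk or dawn library, the genotype comparison ranged from 0 to 2672. Testing 4 against 4 libraries as 2 groups called 8 higher and 6 lower genes, 12 groups over 24 libraries 179 and 155, DESeq2's Wald test 238 and 231 (13 for the genotype comparison), and limma on gene FPKM 15 and 16 with a pseudocount of 1, and 17 lower with 0.1. Without the 2 libraries that stand apart, 61 transcripts were higher and 50 lower, and the genotype comparison called 2 genes. Upper quartile scaling kept the direction of all calls, with 23 higher and 38 lower. Limma on gene FPKM gave medians of 0.11 and 0.127 over its 8208 tested genes, against -0.02 over the 10837 genes of the main fit. With the replicate block 15 genes were higher and 15 lower, with length offsets and the block 17 lower, and 12 and 9 transcripts. No label says whether a replicate number marks a pairing or a batch. In a check over 15 pairs of times, 4 correlations were over 0.1 (from -0.34 to 0.19). These pairs share libraries, so the check does not settle that question. Uncalled genes changed sign: Pdp1 to -0.049 without ZT2 replicate 1 and -0.031 with length offsets, cyc to -0.0064 without the 2 libraries, and cry to 0.26 without ZT2 replicate 1 and 0.054 and 0.059 with limma on FPKM. Without the 2 libraries Pdp1 was at 0.95 and cry at -0.43, and cyc was at 0.41 without ZT2 replicate 1. The cause of these moves was not tested. With 2 replicates a time, the omission fits leave a lone library assumed to vary like the others.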

Other observations

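The daily course of the called genes gave some values that stand in no comparison above. In 15 of the 23 higher genes ZT14 was above ZT10, and 4 of them had their ZT18 mean above both the dusk and the dawn mean. In 7 of the 26 lower genes ZT2 was above ZT22, and in 15 the ZT6 mean was above the ZT18 mean. Jhe was at 4.50 and 3.76 CPM at ZT6 and at 1.51 and 0.999 at ZT18; the ZT6 values lay between the dusk and dawn ranges, and the lower ZT18 value lay inside the dusk range. The Pdp1 start site at 7833073 was at 13.7 and 9.95 FPKM at ZT6 and at 21.0 and 40.2 at ZT18; the ZT6 values and the lower ZT18 value lay between the dusk and dawn ranges, and the higher ZT18 value lay inside the dusk range. Of the 49 called genes, 15 lie on 3R, 11 on 3L, 9 on 2R, 8 on 2L and 6 on X, and 13 share exon bases with another gene on either strand. For the counts in this paragraph the shares over all tested genes were not computed, so they only describe the called genes.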
